A study of Trichosurus vulpecula with 116 samples.

Results

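Brain and kidney were compared within the same brushtail possum (Trichosurus vulpecula) pouch young, the stage at which a marsupial newborn completes its organ development attached to the teat. The comparison takes the 14 libraries, of 116 in the series, that are a brain and a kidney of the same animal, matched by the animal name in the library titles. This gave 7 animals, aged 10, 14, 15, 22, 41, 46 and 62 days postpartum (dpp), and each library is named below by its tissue and the age of its animal. All 7 were untreated pouch young of different mothers from the Dunedin region of New Zealand, and the mothers of the 10 and 14 dpp animals had been kept in a colony. The animals of 10, 14, 15 and 46 dpp were female and those of 22, 41 and 62 dpp were male. The 22 dpp animal, Sandy, was made with the NEXTFLEX kit and the other 6 with the NEBNext kit, so kit differs between animals and never within a pair. The labels give the tissue as brain without a region. A brain of 17 dpp and kidneys of 42 and 85 dpp have no partner and were set beside the pairs as values, and 2 further libraries of an animal whose title and tissue label name different organs were left out.

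Marsupials are born with an immature brain and a kidney that still forms nephrons, and both organs develop over weeks in the pouch. Neurons are recognised by genes for their cytoskeleton, for the release of synaptic vesicles and for ion channels and receptors, whereas glia support them, with oligodendrocytes making myelin. The nephron filters blood at the podocyte-covered glomerulus, recovers solutes in the proximal tubule, and adjusts salt and water in the loop of Henle, the distal tubule and the collecting duct. HOX genes lie in clusters and are used along the body axis, with low-numbered paralogue groups towards the head and high-numbered groups towards the tail.

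Levels are log2 counts per 1000000 mapped reads (CPM), which allow a gene to be compared between libraries but not with another gene, since they are not divided by length. Reads assigned to genes numbered 1154619 to 24428708 in the brains (median 11981370) and 2176367 to 31393983 in the kidneys (median 5480684). The brains of 41, 14 and 15 dpp were the shallowest, with 1154619, 1706397 and 2696281 reads. A gene without reads was written by the authors as 0.9 read, which is a level of -5.07 to -1.01 in the brains and -5.31 to -1.76 in the kidneys, and it is called "no reads" below. Where every library of a tissue held 3 reads or fewer for a gene, its fold difference is a lower bound, computed against 3 reads in each of those libraries and covering counting error only.

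The share of mapped reads that fell on genes was 72.8% ± 6.57 in brain and 79.8% ± 6.22 in kidney (SD, n = 7 each). It was lower in brain in 7 of 7 animals (difference of -7.04 percentage points, exact two-sided sign-flip permutation p = 0.0156, the smallest that 7 pairs can give, adjusted over 2 measures p = 0.0312). Reads on mitochondrial genes made up 2.59% ± 2.2 of the brain and 6.23% ± 4.76 of the kidney reads, with the brain lower in 6 of 7 animals (exact two-sided sign-flip permutation p = 0.0938, adjusted p = 0.0938). The highest mitochondrial share was 16.02%, in the 22 dpp kidney.

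The first principal component of the 14222 genes tested held 64.5% of the variance and separated the 7 brains from the 7 kidneys without overlap. The second component, with 16.1%, spread the libraries within each tissue. Along it the kidneys lay in the order 22, 10, 15, 14, 46, 62 and 41 dpp, which is also their order by the share of reads on genes, from 88.02% to 71.63%. The brains of 22 and 10 dpp were at the same end, with 81.07% and 80.87% of reads on genes. What underlies this component was not tested.

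**Figure D1:**
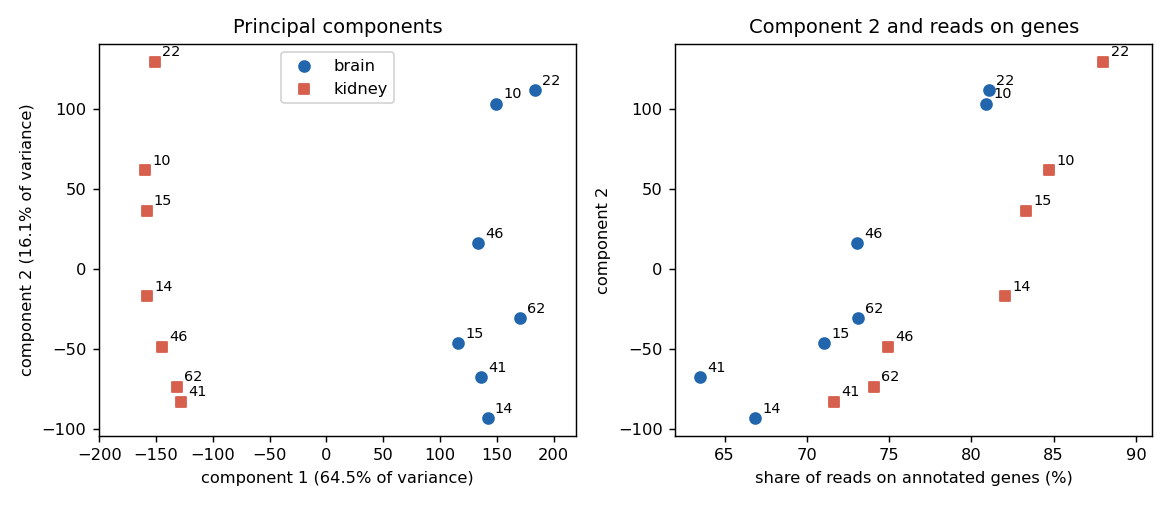
First (x axis) and second (y axis) principal components of 14 libraries over 14222 genes, with 1 point per library labelled by age in dpp and coloured by tissue, and the percent of variance on each axis. Brains and kidneys lie on opposite sides of 0 on the first component (64.5%), and the 22 dpp libraries are highest on the second (16.1%).

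Brain and kidney differed in a large part of the genes measured. In brain, 2535 genes were higher (17.8% of 14222) and 3956 were lower (27.8%), so 45.6% of the genes tested passed the threshold, set in limma with the animal as a block at a Benjamini-Hochberg adjusted p under 0.05 together with a 2-fold difference (1 on the log2 scale). The difference pointed the same way in all 7 animals for 2144 of the genes higher in brain and 3198 of those lower. The 7 brains did not overlap the 7 kidneys for 1420 of the genes called higher and 1899 of those called lower, while 10.3% and 13.6% of all genes tested had brains wholly above or wholly below the kidneys. Differences of 8 or more on the log2 scale were found for 93 genes higher in brain and 119 higher in kidney, and 114 genes called higher in brain had 3 reads or fewer in every kidney, against 158 in the reverse direction. Over all 14222 genes the median difference was -0.26. With the share of reads on genes as a covariate, the split was 2921 higher and 2982 lower and the median -0.05.

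The filter on low values bears on these counts. Genes were tested if they were at 0 or above in at least 7 of the 14 libraries, so a gene with no brain at 0 or above was tested only where all 7 kidneys were, which fixes its direction. This held for 358 of the genes tested, and the reverse for 309. Gene groups that lost members to the filter are therefore counted below over all their genes in the table, in the same fit without the filter, in which 13.1% of 23816 genes were higher in brain and 18.2% lower (median -0.12). Genes without reads enter those medians at the value the authors wrote for them. For a gene that had no reads in 4 or more libraries of a tissue and did not overlap, the difference is given with levels below 0 set to 0, since depth sets its full size.

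The tissue labels held against defining markers. Of 22 neuronal markers, all 22 were higher in brain, each had over 3 reads in every brain, and 21 did not overlap between the tissues. They are the same genes as the list of neuron identity and cytoskeleton below. Of 13 kidney markers, 12 are in the table, and all 12 were higher in kidney, with over 3 reads in every kidney and 3 reads or fewer in every brain for 6. The kidney markers are also members of the kidney lists below. These are whole pieces of tissue, so for every gene below fewer cells of a type and less RNA per cell cannot be told apart.

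**Figure D2:**
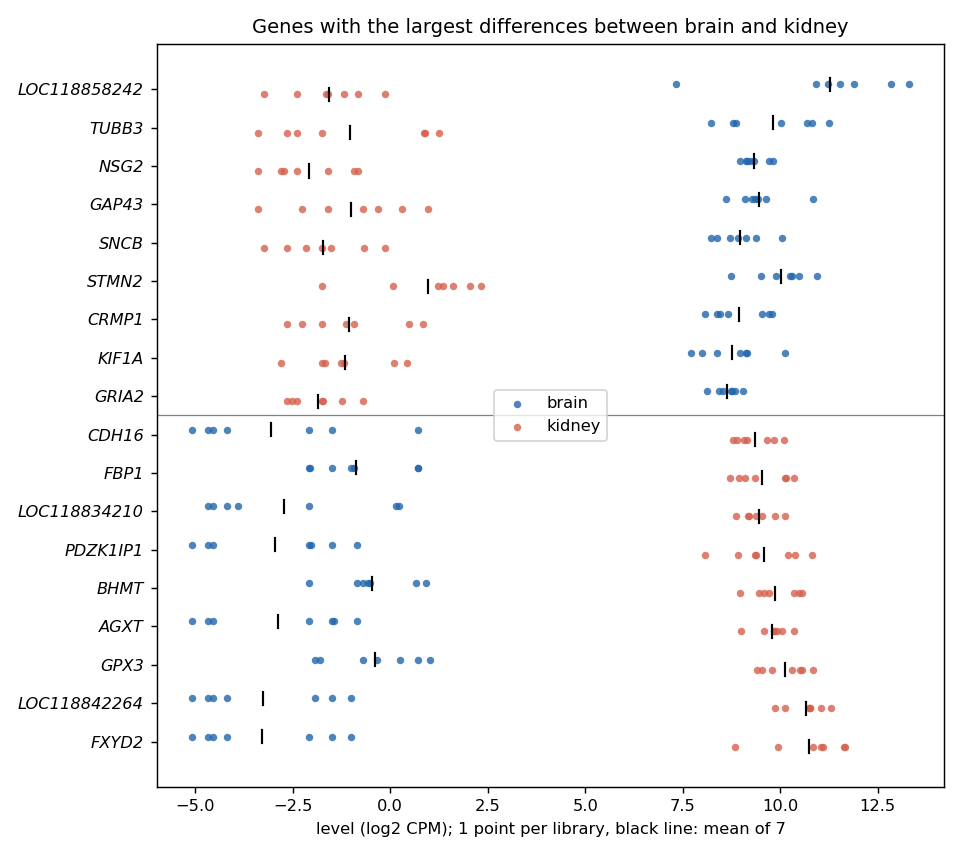
Level (log2 CPM, x axis) of 9 of the 10 genes with the largest and 9 of the 10 with the lowest brain minus kidney difference, levels below 0 set to 0, in each of 14 libraries, with 1 point per library coloured by tissue and black lines for means. For all 18 genes drawn the 7 brains and 7 kidneys do not overlap.

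The 10 genes with the largest excess in brain, ranked among called genes without overlap with levels below 0 set to 0, were mostly genes of the neuronal cytoskeleton, axon growth and synapse. TUBB3 (chr3:391798356-391810255), the tubulin of neurons, lay at 8.23 to 11.24 in the brains (median 10.01) and between no reads and 1.24 in the kidneys (median -1.76). Every brain was thus above every kidney, with a log2 difference of 10.84 ± 0.60 (SE, n = 7 pairs, limma adjusted p = 6.26e-07).

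NSG2, a vesicle trafficking protein of neurons, showed little spread among the brains, at 8.96 to 9.82, and was at most -0.83 in the kidneys (difference 11.43 ± 0.34). GAP43 (10.46 ± 0.63) and STMN2 (9.03 ± 0.56) are growth cone proteins, CRMP1 (9.99 ± 0.42) takes part in axon guidance, and KIF1A (9.93 ± 0.38) is a motor that carries synaptic vesicle precursors. SNCB, the beta-synuclein of nerve terminals, differed by 10.70 ± 0.44 and the glutamate receptor subunit GRIA2 by 10.49 ± 0.31. The remaining gene, LOC118858242 (chr1:86399067-86408463), has no functional name here and had the largest difference of the 10, 11.29 with levels below 0 set to 0. Its 15 dpp brain, at 7.33, lay below the other 6 brains (10.91 to 13.29) and still above every kidney (at most -0.13).

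The 10 genes with the largest excess in kidney, ranked in the same way, were dominated by metabolic enzymes and tubule membrane proteins. FXYD2 (chr2:126191398-126203305), the regulatory subunit of the kidney sodium pump, was at 8.84 to 11.65 in the kidneys (median 11.05) and had no reads in any of the 7 brains, so it was at least 4970-fold higher in kidney. CDH16, the cadherin of kidney epithelia, was at 8.79 to 10.09 in the kidneys with 3 reads or fewer in every brain, at least 1930-fold higher. AGXT, which detoxifies glyoxylate, was at 8.99 to 10.35 in the kidneys and at most -0.86 in the brains (difference -9.80 with levels below 0 set to 0).

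FBP1, an enzyme of gluconeogenesis, differed by -10.41 ± 0.49, and BHMT, which remakes methionine from homocysteine, by -10.33 ± 0.41. GPX3, the secreted glutathione peroxidase made in kidney tubules, differed by -10.53 ± 0.35 with kidneys at 9.40 to 10.84 and brains at most 1.01. PDZK1IP1, a membrane protein of proximal tubules, differed by -9.58 with levels below 0 set to 0. LOC118842264 (chr3:154997710-155037401) and LOC118834210 (chr1:550804215-550856145) carry no functional name here and were at least 4740-fold and at least 2050-fold higher in kidney.

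Genes that define neurons were higher in brain throughout the lists examined. All 22 genes of neuron identity and cytoskeleton passed the test (median difference 7.90, or 7.69 with genes at 3 reads or fewer in every kidney set to their bound), where 17.8% of all genes did. These are the markers used above for the brain label, so this count is not a separate result. MAP2, a dendritic microtubule protein, was at 7.99 to 9.87 in the brains and 0.98 to 4.44 in the kidneys, without overlap. Among genes of synaptic vesicles and release, 22 of 23 in the table were higher in brain without the filter (median 5.46). SNAP25, part of the fusion machinery, was at 6.41 to 9.16 in the brains and at most -0.34 in the kidneys (difference 9.41 ± 0.48).

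SYT1, the calcium sensor of release, was at 6.59 to 8.41 in the brains and -0.40 to 2.86 in the kidneys, and its relative SYT4 differed by 8.29 with levels below 0 set to 0. GAD1, which makes the inhibitory transmitter GABA, differed by 7.23 on the same scale. The vesicular glutamate transporter SLC17A7, described after its values were seen, was tested and not past the test (1.76 ± 1.01, limma adjusted p = 0.168). Its level ran from -1.01 in the brains of 22 and 41 dpp to 6.52 in the 62 dpp brain.

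Receptors and channels followed the same direction, with all 25 genes in the table tested and higher in brain (median 5.87, or 5.57 with bounds). GRIA2, an AMPA receptor subunit, was at 8.13 to 9.05 in the brains and at most -0.70 in the kidneys, whereas GRIA1 was also read in kidney, at 2.22 to 4.28 against 5.44 to 7.30 in brain (difference 3.14 ± 0.46).

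Gene families were counted by symbol over all their genes in the table, without the filter, where 13.1% of all genes were higher in brain and 18.2% lower. Of 12 genes with a symbol starting with GABR, 10 were higher in brain, as were 16 of 19 starting with GRI, a prefix that also takes in the scaffold genes GRIP1 and GRIP2. Symbols starting with KCN, potassium channels and their auxiliary subunits, gave 47 higher and 7 lower of 88. The protocadherin symbols (PCDH) gave 6 higher and 1 lower of 10, and the lower one, PCDH12, is known from endothelium. SOX genes gave 11 higher and 1 lower of 18.

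RNA-binding proteins that direct neuronal splicing were also higher in brain, 11 of 12, all of them tested (median 6.76). ELAVL4 was nearly level across the brains, at 6.41 to 6.88, and at most -1.76 in the kidneys (difference 6.56 with levels below 0 set to 0). SRRM3, which promotes microexon inclusion, was at least 140-fold higher in brain. NOVA2 differed by 6.39 ± 0.38, and NOVA1 by 2.64 ± 0.55 with kidneys at 4.33 to 8.09 that overlapped the brains at 7.44 to 9.58. The NOVA1 call was lost with the share of reads on genes as a covariate (0.92) and over the animals with more than 3000000 reads in both libraries (1.97).

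Genes of astrocytes and radial glia were higher in brain for 10 of 18 tested, lower for 1 and not past the test for 7 (median 2.72). FABP7, the lipid-binding protein of radial glia, was at 7.75 to 12.00 in the brains and -1.60 to 4.45 in the kidneys (difference 8.70 ± 0.82). The proteoglycan BCAN, at 4.34 to 8.29 in the brains, was at least 212-fold higher in brain, and the glutamate transporter SLC1A2 differed by 5.32 with levels below 0 set to 0. The water channel AQP4 overlapped, at 1.08 to 8.59 in brain and 4.43 to 7.05 in kidney (difference -0.47 ± 0.63), and was highest in the 46 dpp brain. ALDH1L1, a folate enzyme used as an astrocyte marker, was lower in brain (-3.06 ± 0.70), a call lost with the share of reads on genes as a covariate (-1.42).

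Of 17 oligodendrocyte and myelin genes in the table, 7 were higher in brain (41.2%, against 13.1% of all genes) and 3 lower (17.6%, near the 18.2% of all genes) without the filter (median 0.02). Of the 10 tested, 4 were higher and 4 lower, and the lower count was 2 without the 22 dpp animal, with limma-voom, over the animals with more than 3000000 reads in both libraries and with the share of reads on genes as a covariate, which also turned the median of the 10 from -0.94 to 0.30. The lineage factor OLIG1 was at 1.78 to 7.29 in the brains with no reads in any kidney, at least 65.7-fold higher, and the myelin protein MOG was at 0.48 to 5.79, at least 16.9-fold higher. The lower members tested were MAG, CLDN11, UGT8 and ASPA, of which ASPA, the enzyme that splits N-acetylaspartate, differed by -5.55 with levels below 0 set to 0 and UGT8, a galactolipid synthase, by -3.25 ± 0.45. The call of CLDN11 was also lost without the replicate block (limma adjusted p = 0.0578). MAG was at 1.86 to 3.38 in the kidneys and its call (-2.40 ± 0.92, limma adjusted p = 0.0496) was lost in 12 of 15 alternatives.

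The 46 dpp brain held the highest level of MAG (5.98), OLIG1 (7.29), MOG (5.79) and GPR17 (6.65), a receptor of oligodendrocyte precursors, of which MAG and GPR17 were described after their values were seen. The 62 dpp brain, which was older, had MAG at 0.83 and OLIG1 at 5.29.

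Of 9 choroid plexus genes in the table, TTR, the thyroid hormone carrier of cerebrospinal fluid, was higher in brain and CLIC6, AQP1 and PRLR were lower. Without the filter the share higher was 11.1%, below the 13.1% of all genes, and the share lower was 33.3%, against 18.2%. TTR was most abundant in the 46 dpp brain (7.62) and had no reads in the 15 dpp brain, and its call (3.94 ± 1.45) was lost in 8 alternatives, with differences of 2.79 to 5.95. The CLIC6 call (-2.52) was lost in 4, with differences of -3.02 to -1.74. AQP1, which the proximal tubule also uses for water, was at 6.55 to 7.48 in the kidneys and at most 1.73 in the brains.

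Microglia and macrophage genes were higher in brain for 1 and lower for 5 of 12 in the table, with or without the filter. Without it these are 8.33% and 41.7%, against 13.1% and 18.2% of all genes. The lower count was 2 with the share of reads on genes as a covariate. The microglial receptor P2RY12 was at 0.23 to 3.53 in brain and -2.25 to 2.45 in kidney (difference 2.09 ± 0.72), a call lost without the animals of 22, 41, 46 or 62 dpp, each left out in turn, and the difference without the 22 dpp animal was 2.19. CX3CR1 overlapped (0.39 ± 0.38). TMEM119 was lower in brain (-3.05 ± 0.45), as was SALL1 (-2.56 ± 0.50), a gene also used in nephron formation. The summed level of the list was 4.53 to 6.76 in the brains and 6.25 to 7.49 in the kidneys, with SALL1 its gene with the highest CPM in both, a ranking not corrected for gene length.

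Among neural progenitor and regional transcription factors, 19 of 31 in the table were higher in brain and 2 lower without the filter (median 3.10), and only 11 passed it. The 20 that did not pass include SOX1 and SOX2, progenitor factors with no reads in any kidney and at most 4.59 and 4.97 in the brains, each with no reads in the brains of 14 and 41 dpp. NEUROD6, a factor of cortical projection neurons, was at 3.05 to 8.99 in the brains and at least 153-fold higher than in kidney. ZIC1, a factor of the dorsal and posterior neural tube, was at 0.02 to 6.40 and at least 43.1-fold higher. EMX1 and EMX2, factors of the cerebral cortex and also of the urogenital system, were lower in brain (-4.21 ± 1.06 and -2.58 ± 0.76), and both calls were lost with the share of reads on genes as a covariate, although the differences were then -4.34 and -3.45.

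The brains differed among themselves in factors that mark regions of the brain, described here after their values were seen and therefore with no test. TBR1, a factor of cortical neurons, was at 7.10, 6.07 and 7.10 in the brains of 10, 15 and 62 dpp and at most 0.14 in the other 4. FEZF2, which specifies deep cortical neurons, was at 3.37, 1.98 and 2.55 in the 3 and at most -1.01 in the others.

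EMX1 followed the same grouping, with 3.37, 5.39 and 4.05 in the brains of 10, 15 and 62 dpp and at most -1.01 in the other 4, while the kidneys all lay between 3.95 and 5.94. The midbrain and hindbrain factors EN1 and EN2 were present in the brains of 10, 22 and 41 dpp (EN2 at 4.91, 5.89 and 3.31) and at 4 reads or fewer in the other 4. OTX2, a factor of the forebrain and midbrain, was highest in the brains of 41 and 22 dpp (5.74 and 5.65) and lowest in that of 62 dpp (-0.79), with no reads in any kidney.

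The patterning factors IRX1 and IRX2 were at 3.55 or more in the brains of 10, 14, 22, 41 and 46 dpp and at 3 reads or fewer in those of 15 and 62 dpp. The unpaired 17 dpp brain had TBR1 at 6.83 and EMX1 at 3.42, with no reads of EN2. Age and the piece of brain taken cannot be told apart here, since each brain is 1 animal of 1 age.

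**Figure D3:**
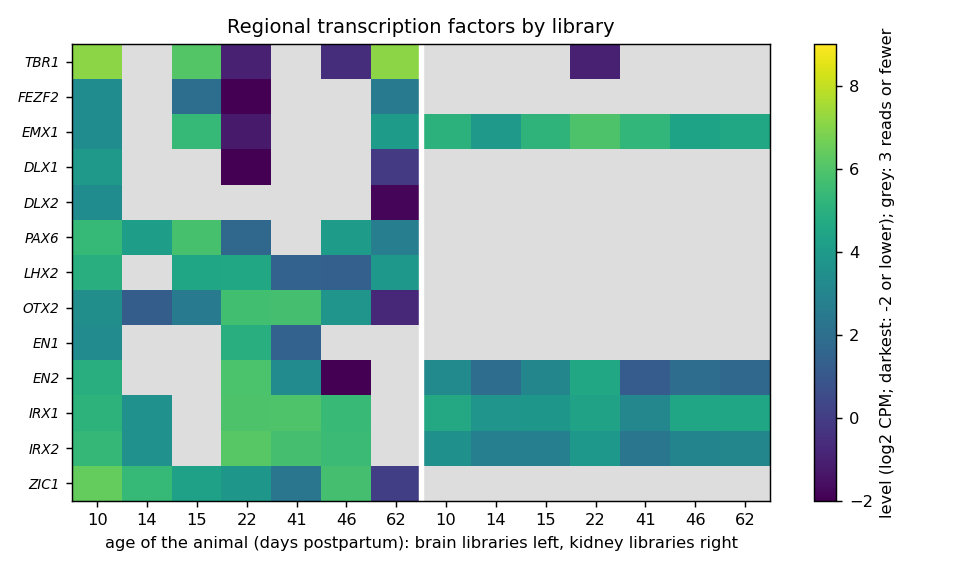
Level (log2 CPM, colour) of regional and patterning transcription factors (rows) in the 7 brains and 7 kidneys (columns, by age in dpp), with grey for 3 reads or fewer. Among the brains, TBR1, FEZF2 and EMX1 are highest at 10, 15 and 62 dpp. EN1 and EN2 are highest at 10, 22 and 41 dpp, with EN1 at 5 reads in the 41 dpp brain.

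Most HOX genes of high paralogue groups were read above 3 reads in each kidney and, apart from 3 genes of the HOXB cluster, not above 3 reads in any brain. The table holds 39, in 4 clusters (HOXA chr5:18459995-18581009, HOXB chr4:188281068-188495625, HOXC chr5:270578790-270710605 and HOXD chr2:230815896-230921785). Without the filter none of the 39 was higher in brain and 19 were lower. They were 17 of the 24 genes of paralogue groups 6 to 13 (median difference -4.56) and 2 of the 15 of groups 1 to 5, where 18.2% of all genes were lower. The difference between these shares was not tested. With the filter 13 of the 24 were tested, and 10 of these had no brain at 0 or above, so their direction was fixed by the filter.

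The HOX genes named here were described after their values were seen. HOXD9 was at 5.76 to 6.57 in the kidneys with no reads in any brain, at least 199-fold higher in kidney. HOXD8, HOXA10 and HOXC9 also had no reads in any brain and were at least 52.3-fold, 32.7-fold and 32.7-fold higher in kidney. Of the 24 genes of groups 6 to 13, 13 had over 3 reads in every kidney and 19 in at least 1 kidney. HOXD11, used with HOXA11 in early kidney formation, was at 2.60, 2.45 and 3.08 in the kidneys of 10, 15 and 22 dpp and at most -1.64 in the other 4.

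In the brains, detection of HOX genes varied by animal and was mostly of low paralogue groups. Of the 15 genes of groups 1 to 5, over 3 reads were found for 15 in the 10 dpp brain, 6 at 14 dpp, 10 at 22 dpp, 13 at 46 dpp and 0 in the brains of 15, 41 and 62 dpp. Of the 24 genes of groups 6 to 13, 3 were found in each of the brains of 14 and 46 dpp, namely HOXB6, HOXB7 and HOXB8, and 0 in the other 5. HOXB7 was at 5.39 in the 14 dpp brain (107 reads), above all 7 kidneys (3.11 to 4.57), and HOXB6 had 59 reads in the 46 dpp brain (1.85), within the range of the kidneys (0.56 to 3.58). Depth differs between these libraries, and the 41 dpp brain was the shallowest. The 62 dpp brain, also without HOX genes over 3 reads, had 15185396 reads on genes. The 14 dpp brain, which held such genes, had 1706397. The part of depth in these counts was not tested.

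HOXA5 was at 8.88 in the 14 dpp brain, 7.83 at 46 dpp and 3.60 at 10 dpp, with 3 reads or fewer in the other 4, while the kidneys lay at 2.93 to 4.57. The brains thus lay both above and below the kidneys, and HOXA5 did not pass the test (-2.78 ± 1.69, limma adjusted p = 0.194). The 2 genes of groups 1 to 5 lower in brain were HOXD3 and HOXD4. Both calls were lost over the animals with more than 3000000 reads in both libraries. HOXD3 differed there by -3.79, against -3.93 over all 7 animals. Both calls were also lost with the share of reads on genes as a covariate (HOXD3 at -4.78). With limma-voom the HOXD3 call was lost at a smaller difference (-2.33).

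**Figure D4:**
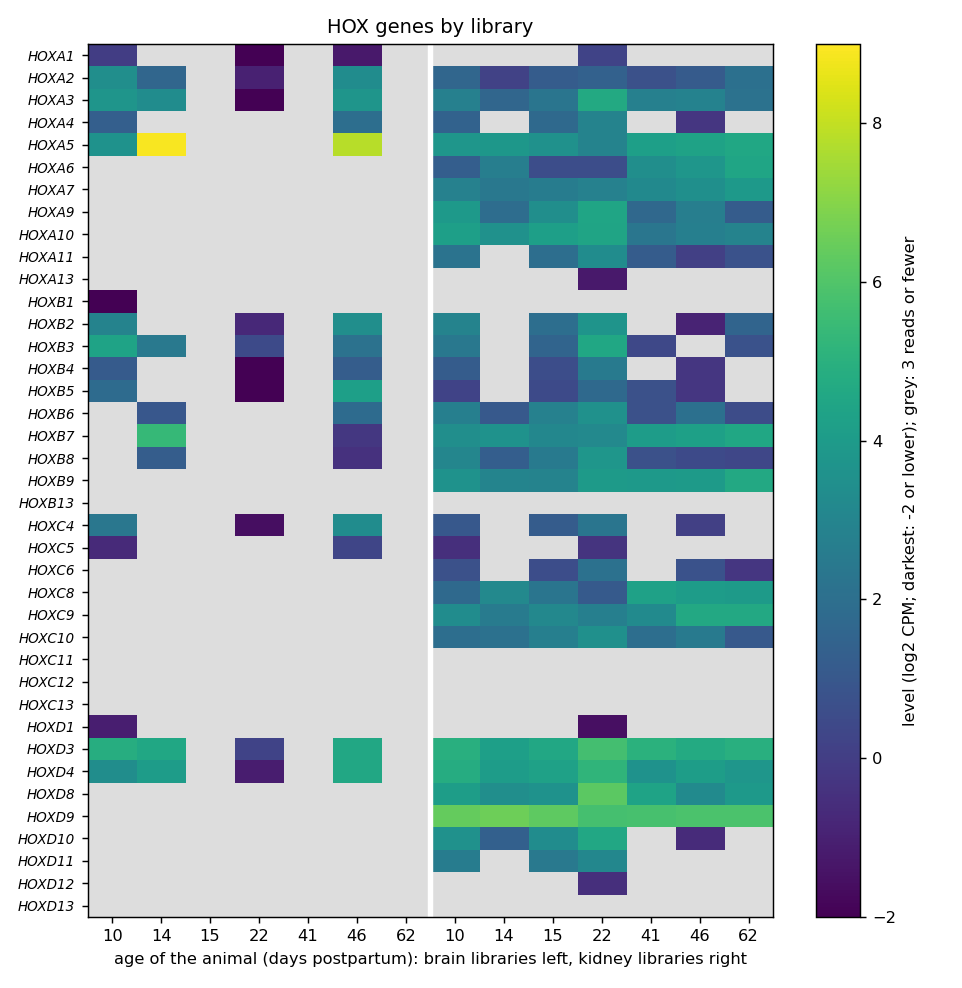
Level (log2 CPM, colour) of the 39 HOX genes (rows, by cluster and paralogue group) in the 7 brains and 7 kidneys (columns, by age in dpp), with grey for 3 reads or fewer. In groups 6 to 13 the brains hold reads of HOXB6, HOXB7 and HOXB8 at 14 and 46 dpp, while 14 to 19 of these 24 genes are above 3 reads in each kidney.

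Each segment of the nephron held genes that were higher in kidney. For podocytes and the glomerulus 11 of 17 genes in the table were lower in brain and none was higher, without the filter (median -2.74). NPHS1, the nephrin of the slit diaphragm, was at 4.70 to 6.30 in the kidneys and at least 136-fold higher than in brain. The podocyte regulator WT1 was at 4.46 to 7.64 and at least 195-fold higher. Genes not past the test included SYNPO, KIRREL1 and TRPC6. PTPRO, described after its values were seen, was also not past it and was read at 4.87 to 6.39 in the brains and 4.84 to 7.18 in the kidneys.

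Of the proximal tubule transporters and endocytic receptors, 23 of 24 in the table were lower in brain without the filter (median -6.43). SLC34A1, the phosphate transporter, was at 6.81 to 8.50 in the kidneys with no reads in any brain, at least 608-fold higher, and the organic cation transporter SLC22A2 differed by -9.90 ± 0.71. LRP2 and CUBN, the megalin and cubilin receptors that take up filtered protein, differed by -6.75 ± 0.65 and -4.82 ± 0.44. Both had their highest kidney value at 22 dpp, 10.51 and 9.49.

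Proximal tubule enzymes were lower in brain for 20 of 20 in the table without the filter (median -8.36). Of the 18 tested, 6 had no brain at 0 or above. MIOX, which begins inositol breakdown, was at 7.64 to 9.71 in the kidneys and at most -1.01 in the brains (difference -8.69 with levels below 0 set to 0). PCK1, the gluconeogenic enzyme, varied more, from 4.53 to 9.48 in the kidneys (difference -7.01 on the same scale).

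Further along the nephron, 11 of 20 genes of the loop of Henle and distal tubule in the table were lower in brain without the filter (median -4.75). UMOD, the uromodulin of the thick ascending limb, was at 5.99 to 11.32 in the kidneys and at least 1210-fold higher, TMEM52B was at least 460-fold higher, and the salt transporter SLC12A1 differed by -9.54 ± 0.70. The potassium channels KCNJ16 and KCNJ1, described after their values were seen, were uneven among the kidneys. KCNJ16 was at 6.22, 4.92 and 8.30 at 10, 15 and 22 dpp and at most 0.95 in the other 4, and KCNJ1 was at 3.71, 1.87 and 5.30 in those 3 and at most -1.76 in the other 4.

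Of the collecting duct genes, 18 of 19 in the table were lower in brain without the filter (median -5.25), and 7 of the 15 tested had no brain at 0 or above. The vasopressin-regulated water channel AQP2 was at 6.79 to 8.69 in the kidneys and had no reads in 6 of the 7 brains and 8 reads in the other (difference -7.60 with levels below 0 set to 0). AQP3 differed by -4.82 ± 0.51, and ATP6V0A4, a proton pump subunit of intercalated cells, by -6.33 with levels below 0 set to 0.

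Genes of nephron progenitors and nephrogenesis were lower in brain for 16 of 24 in the table and higher for none without the filter (median -2.48), and 12 of the 24 passed it. PAX2 was at 5.02 to 7.20 in the kidneys but also reached 5.65 in the brains (difference -4.96 ± 1.28), and its call was lost with the share of reads on genes as a covariate (-6.46, limma adjusted p = 0.0534) and over the animals with more than 3000000 reads in both libraries (-4.85). GDNF, the signal that draws out the ureteric bud, differed by -3.43 ± 0.46. SIX2, a factor of nephron progenitors, was below the filter, at -1.72 to 0.95 in the kidneys. CITED1, another progenitor gene described after its values were seen, had 1 read or none in every one of the 14 libraries.

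Of the transcription factors of kidney epithelium, 10 of 19 in the table were lower in brain without the filter (median -3.51) and SOX4 was higher (2.02 ± 0.42), a call lost with the share of reads on genes as a covariate (1.25). HNF4A, at 5.08 to 6.98 in the kidneys, was at least 189-fold higher in kidney.

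Renal endocrine genes were lower in brain for 7 of 10 in the table without the filter (median -3.63). KL, the co-receptor of the phosphate hormone FGF23, differed by -8.07 ± 0.43. Erythropoietin, EPO, had 3 reads or fewer in every kidney.

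Epithelial adhesion and junction genes were lower in brain for 20 of 20 in the table without the filter (median -4.86). KRT8 differed by -10.36 ± 0.64, and EPCAM, a cell adhesion molecule, by -2.65 ± 0.21 with brains at 3.29 to 4.27 and kidneys at 6.37 to 6.92. Without the filter, 12 of 21 claudin genes (CLDN) were lower in brain and 0 higher. Of 328 solute carriers (SLC) 131 were lower (39.9%) and 75 higher (22.9%), against 18.2% and 13.1% of all genes. The calcium-binding S100G, described after its values were seen, was at 7.15 to 10.63 in the kidneys with no reads in any brain, at least 1110-fold higher.

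**Figure D5:**
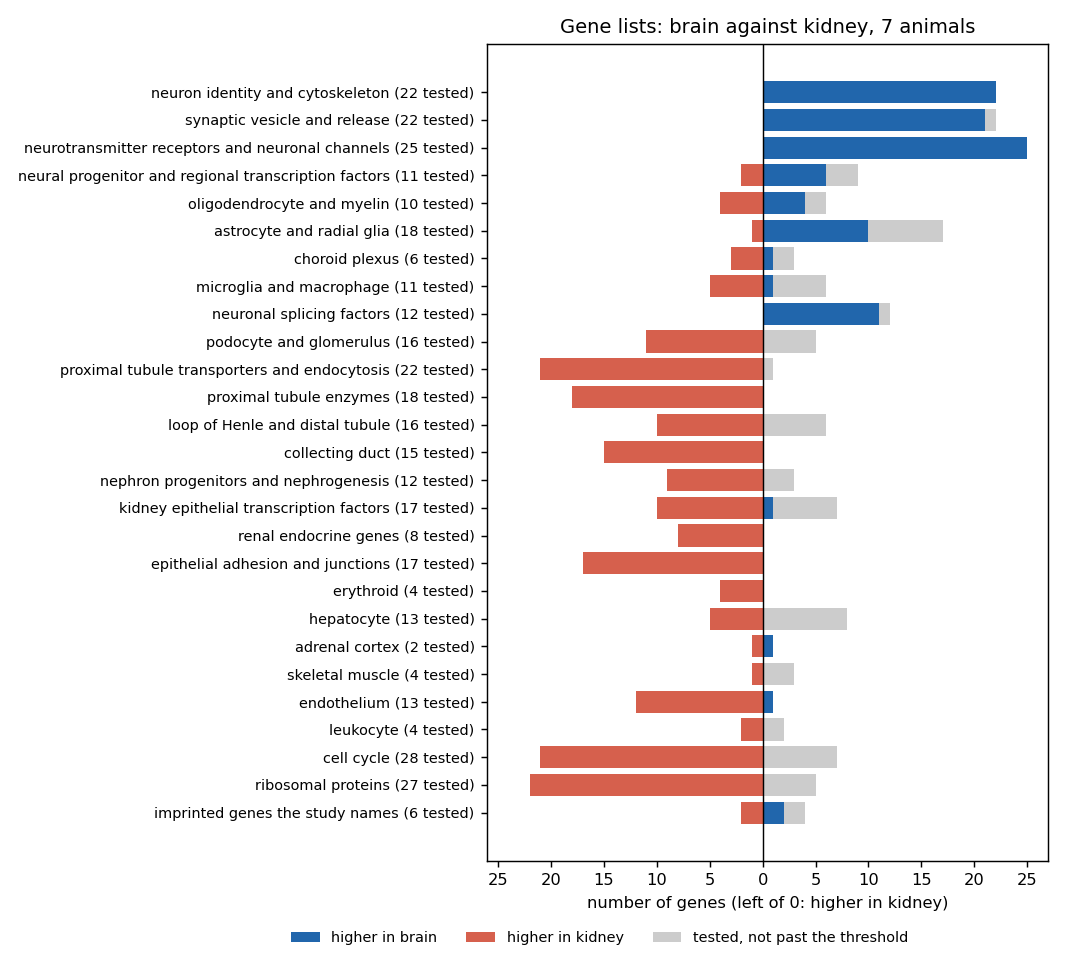
Number of genes (x axis) of each gene list that passed the filter and were tested in brain against kidney, with bars to the right for genes higher in brain, bars to the left for genes higher in kidney and grey for genes not past the threshold. Neuronal lists lie to the right of 0 (22 of 22, 21 of 22 and 25 of 25 higher in brain) and nephron lists to the left, and genes that did not pass the filter are not drawn.

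Endothelial genes were lower in brain for 12 of 13 tested, against 27.8% of all genes tested, and EHD3 was higher (median -2.40). With the share of reads on genes as a covariate the lower count was 9 (median -2.04), with the calls of KDR, FLT1 and CLDN5 lost. PECAM1, CDH5 and EMCN, proteins of the vessel wall, differed by -3.34 ± 0.32, -2.40 ± 0.30 and -5.70 ± 0.30. CLDN5, the claudin of brain vessels, described after its values were seen, was at 2.65 to 4.87 in brain and 4.16 to 6.09 in kidney (difference -1.06 ± 0.25), and its call was lost in 7 alternatives.

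Cell cycle genes were lower in brain for 21 of 28 tested and higher for none (median -1.60), and none of the 28 separated the tissues without overlap. The proliferation marker MKI67 was at 4.11 to 9.27 in the brains and 7.24 to 8.82 in the kidneys (difference -2.10 ± 0.60), and the topoisomerase TOP2A at 3.84 to 9.55 and 7.13 to 8.52 (-2.04 ± 0.65). Both were highest in the 15 dpp brain. The TOP2A call was lost in 7 of 15 alternatives, among them without the animals of 14, 22, 41, 46 or 62 dpp, each left out in turn (-1.99 to -1.66). The DNA replication gene MCM6 differed by -2.43 ± 0.48 and the mitotic cyclin CCNB1 by -2.38 ± 0.46. The 21 calls became 11 without the replicate block, at the same median (-1.60), and 2 with the share of reads on genes as a covariate (median -1.20).

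Ribosomal protein genes were lower in brain for 22 of 27 tested (median -1.49), where 27.8% of all genes tested were lower. The count was 15 with the share of reads on genes as a covariate (median -1.22), 17 with limma-voom (-1.35) and 18 with equal 75th percentiles (-1.40). RPL3 differed by -1.73 ± 0.34 and RPL35A by -1.89 ± 0.31. RPL4 (-0.99 ± 0.22) fell just short of the required difference.

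Markers of other cells that a piece of tissue can hold were read beside these groups. The erythroid list had 14 genes in the table, of which 7 were lower in brain without the filter and 4 were tested, and its summed level was 6.29 to 10.52 in the brains and 9.41 to 13.61 in the kidneys. A globin gene, LOC118837956, had the highest CPM of the list, not corrected for gene length (difference -2.74 ± 0.31), and a further globin, LOC118831015, differed by -2.83 ± 0.41. The leukocyte list had 4 of 11 genes lower in brain without the filter, CD79A (-6.72 ± 0.47) and CD3E (at least 9.44-fold higher in kidney) among them, with PTPRC not past the test. For skeletal muscle 1 of 12 was lower in brain (8.33%, below the 18.2% of all genes), MYLPF (-3.18 ± 0.41). The muscle-defining CKM and MYOD1, the latter described after its values were seen, had 1 read or none in every library. ACTA1, also of this list and not tested, had at most 16 reads in any brain and 5 in any kidney. The part of these cells in the results above was not tested.

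Hepatocyte genes were lower in brain for 4 of 18 in the table and higher for none without the filter, a share (22.2%) near that of all genes (18.2%). Alpha-fetoprotein (AFP, LOC118852573), a plasma protein of early life made chiefly by liver and yolk sac, was at 8.22 to 11.85 in the kidneys (median 10.71) and 0.53 to 4.23 in the brains, without overlap (difference -8.05 ± 0.63). In the livers of the 10, 14, 15 and 22 dpp animals it was at 14.89 to 15.25. APOB, described after its values were seen (-6.95 ± 0.55), and the prothrombin gene F2 (-7.74 ± 0.55) were also lower in brain than in kidney without overlap.

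AHSG, a plasma glycoprotein of liver described after its values were seen, was at 14.35 to 14.92 in those 4 livers. In the kidneys it was at 7.95 at 10 dpp, 4.72 at 22 dpp, 1.74 at 15 dpp, 0.17 at 14 dpp and at most -1.25 in the other 3. The 14 dpp kidney thus held AFP at 10.71 with AHSG at 0.17. The 10 dpp kidney also had the highest APOA1 (5.71) of the 7 and, described after its values were seen, the highest FGB (6.02).

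Of 6 adrenal cortex genes in the table, SCARB1 was higher in brain (1.67 ± 0.38) and FDX1 lower (-1.31 ± 0.24). Without the filter each share was 16.7%, near the 13.1% and 18.2% of all genes. The SCARB1 call was lost without the replicate block at the same difference and over all 8 brains and 9 kidneys (1.39). The FDX1 call was lost with the share of reads on genes as a covariate (-0.90) and over all 8 brains and 9 kidneys (-0.99). SCARB1 and FDX1 are genes that many cells use. The steroid-making STAR and HSD3B2 were not tested. STAR had 69 reads in the 10 dpp kidney (2.60) and none in the other 6, and HSD3B2 was highest there (4.07) and next at 46 dpp (1.93). Described after their values were seen, the adrenal factor NR5A1 had 4 reads in the 10 dpp kidney and none in the other 13 libraries, and the adrenal receptor MC2R had no reads in any of the 14.

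The study names several imprinted genes, which are read from 1 parental copy. PEG10 (chr5:382522-402068), a gene derived from a retrotransposon, was at 5.60 to 10.29 in the brains and 1.57 to 4.17 in the kidneys, higher in brain in 7 of 7 animals and without overlap (6.01 ± 0.38, limma adjusted p = 1.31e-06). EPM2AIP1 (chr9:191486483-191488354), whose product binds the glycogen regulator laforin, was also higher in brain in 7 of 7 animals (6.35 ± 0.76, limma adjusted p = 7.77e-05). It was uneven in both tissues, at 8.69, 9.49 and 6.55 in the brains of 10, 22 and 46 dpp and 2.11 to 4.15 in the other 4, so the highest kidney (2.28) overlapped the lowest brains.

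H19 (LOC118853838, chr6:282652183-282655843), a long non-coding RNA, was at 7.27 to 8.52 in the kidneys and 0.62 to 4.46 in the brains, without overlap (-4.63 ± 0.46). Its partner in imprinting, the growth factor IGF2, was also lower in brain, at 4.96 to 7.66 against 7.55 to 9.07 (-1.91 ± 0.37), a call lost with the share of reads on genes as a covariate at nearly the same difference (-1.88, limma adjusted p = 0.0504). IGF2R (-0.36 ± 0.20) and UBP1 (0.28 ± 0.21) did not pass the test, and GPX7 did not pass the filter. No allele was read here.

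Age was examined within each tissue as the change in log2 level for each doubling of age, over 7 libraries from 10 to 62 dpp. In brain, none of 13139 genes passed an adjusted p under 0.05 (limma, lowest adjusted p = 0.996). In simulated data this fit recovered 0% of slopes of 0.5 and 28% of slopes of 1, so such changes can be missed. The brains also differed in the regional factors described above. The unadjusted p was under 0.05 for 599 genes, 4.56% of those tested, 118 rising and 481 falling, and limma-voom also called 0.

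In kidney, 765 of 13870 genes rose with age (5.52%) and 1401 fell (10.1%), and 36.9% had an unadjusted p under 0.05. Limma-voom gave 1283 rising and 949 falling, so which direction had more genes depends on the method. The main counts also rest on single libraries. Without the animal of 10, 15, 41 or 62 dpp none passed, without that of 46 dpp 1 rose and 2 fell, and without that of 22 dpp 1963 rose and 3254 fell. The kidneys of 41, 46 and 62 dpp also had the lowest shares of reads on genes, 71.63% to 74.93% against 82.04% to 88.02% in the 4 younger ones, so age and this share cannot be told apart in kidney. With the share as a covariate, or with sex as a covariate, none passed.

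Within those limits, cell cycle genes fell in kidney for 18 of 28 tested (median slope -0.82, against -0.15 over all genes tested), with CCNB1 at -1.27 ± 0.19 per doubling of age. MKI67 and TOP2A were not among the 18. The slope of MKI67 was 0.15 ± 0.22, and its highest kidney levels were at 41 dpp (8.82) and 62 dpp (8.32). Proximal tubule enzymes fell for 5 of 20, PCK1, KYNU, DDC and HPD among them, with PCK1 at -1.76 ± 0.40 and a level of 9.01 at 10 dpp and 4.53 at 62 dpp. Hepatocyte genes fell for 6 of 11, AFP among them (-1.31 ± 0.26). FABP7 fell by 2.02 ± 0.38 per doubling, and the calcium-binding CALB1, described after its values were seen, by 1.38 ± 0.17.

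Podocyte genes rose for 5 of 16, among them WT1 (1.17 ± 0.20, limma adjusted p = 0.0240) and PTPRO (0.88 ± 0.21). WT1 was at 4.46 to 6.21 in the 4 kidneys up to 22 dpp and 6.86 to 7.64 in the 3 older ones, without overlap. Kidney transcription factors rose for 5 of 18, PAX2, GRHL2, ESRRB and SOX4 among them, with PAX2 at 0.73 ± 0.19 and SOX4 at 0.70 ± 0.18. SIM1, a gene of the loop of Henle list described after its values were seen, rose by 1.38 ± 0.27.

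Among genes past the test, the 8 steepest rises were LOC118838462, LOC118828141, CLEC3B, LOC118828140, RASGRP1, CDRT1, LOC118829620 and BRINP3, at 1.82 to 2.86 per doubling. RASGRP1, an activator of RAS signalling, rose by 2.11 ± 0.20. The 8 steepest falls past the test were CCNG1, MANBAL, MEP1A, LOC118832205, KNSTRN, KRT23, APOA2 and LOC118844036, at -3.03 to -2.50. MEP1A, a protease of tubule brush borders, fell by 2.76 ± 0.61 and APOA2, an apolipoprotein made by liver, by 2.51 ± 0.38.

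Whether the slope differed between brain and kidney was tested in 1 fit with tissue by age as a term and the animal as a block. None of 14222 genes passed (limma, lowest adjusted p = 0.0791), with 3706 genes (26.1%) at an unadjusted p under 0.05. Limma-voom on the recovered reads called 419 with a higher and 1029 with a lower slope in brain, and without the 10 dpp animal the main test called 1354 and 751. The count therefore depends on the method and on 1 animal.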

How the data were processed

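Per the labels and the study's methods, tissue was kept in RNAlater, RNA was extracted with TRIzol and treated with DNase, and strand-specific poly(A) libraries were read single-end. The authors trimmed reads with Trim Galore 0.6.7, mapped them with HISAT2 2.2.1 to the mTriVul1 assembly and counted uniquely mapped reads over each annotated gene in SeqMonk. The deposited values are log2 counts per 1000000 mapped reads (CPM), although the table is named for RPKM: 100% of values under 200 reads were within 0.02 of a whole read in all 116 libraries. Coordinates are those of the deposited table, which holds 23816 rows. Reads from identical gene copies are lost to unique mapping.

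The log2 values were tested in limma 3.58.1 (R 4.3.3) with the animal as a block, for 14222 genes at 0 or above in at least 7 of 14 libraries. The pairing comes from the animal names in the titles; after centring on tissue means, brain and kidney of 1 animal correlated at -0.07 to 0.77, above 0.1 in 5 of 7 animals. Age slopes used log2 of days postpartum. Tested on simulated data for the brain and kidney comparison (14177 genes), the fit recovered 72% of changes of 1.5 and 94% of changes of 2 on the log2 scale. The simulated reads had the same dispersion for every gene and an animal effect shared by both tissues. These rates do not carry over to genes that spread more, such as HOXA5 (SD of 5.69 among the brains). Other choices tried were the filter, the scaling, a floor at 0, limma-voom on the recovered reads, no block, covariates, and each animal left out.

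The members and the 27 gene lists were chosen with earlier results of these data known. Genes named in the text are the 10 with the largest and lowest difference among those called without overlap, computed with values below 0 set to 0, the first 2 and the 2 most different of each list, members called against the direction of their list (at most 2), the 8 steepest age slopes each way, gene families by symbol and imprinted genes the study names. Any other gene named was described after its values were seen. Some genes that the rule names are not reported here. No sequences were used here.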

Additional observations from a re-analysis of the deposited data

Results flagged for a closer look

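For the genes named in the report and the library measures, 148 sets of 7 libraries of 1 tissue, with over 3 reads of the gene in each, were looked at for a library far from the other 6, by the gap to its nearest neighbour over the whole range. There were 14 such cases, and chance alone gives about 1 in 20. Their causes were not tested.

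The 22 dpp kidney, the only kidney of the pairs made with the NEXTFLEX kit, accounted for 10 of the 14. It was high for the proximal tubule receptors LRP2 (10.51 log2 CPM, others 7.47 to 8.78) and CUBN (9.49, others 5.98 to 7.38), the proton pump subunit ATP6V0A4 (8.07, others 5.42 to 6.42), and the transcription factors SALL1 (6.91, others 4.78 to 5.65) and HOXD8 (6.23, with all others lower). IGF2R (7.73, others 6.10 to 6.53) and UGT8 (4.79, others 2.51 to 3.04) were also high there. ASPA (4.48, others 5.82 to 6.58) and SYT1 (-0.40, others 2.02 to 2.86) were low. The mitochondrial share of this library was 16.02%, above the 2.68% to 7.74% of the other 6. Kit, animal and age cannot be told apart for it, and without the 22 dpp animal none of these 9 genes gained or lost its brain against kidney call.

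The 15 dpp brain accounted for 3 of the 14, with low LOC118858242 (7.33, others 10.91 to 13.29) and PEG10 (5.60, others 8.45 to 10.29) and high RPL4 (10.81, others 9.70 to 10.13). The 15 dpp kidney was low for the B cell gene CD79A (3.49, others 4.44 to 4.90).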

How the results depend on the processing

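The brain against kidney counts stayed within 1.5 times the 2535 higher and 3956 lower genes in every alternative run. They were lowest for the higher genes over all 8 brains and 9 kidneys without pairing (2217 and 3086). That fit takes in the 85 dpp kidney, with 308137 reads on genes, where a gene without reads stands at 0.83. Leaving out 1 animal gave 2348 to 2623 higher and 3663 to 4035 lower. The pairing by animal is the main design, and the fit with no replicate block gave 2345 and 3529. Beyond the cell cycle list, dropping it ended the calls of SCARB1, CLDN11 and 5 further members of the lists, AGTR1 among them. Equal 75th percentiles gave 2684 and 3733 (median difference -0.17), limma-voom 2885 and 3576, and animals over 3000000 reads 2715 and 3546, the last chosen after seeing the data, as were the fits with the share of reads on genes.

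Of 139 named genes tested, 22 lost their call and 7 gained one in at least 1 alternative. With the share of reads on genes 19 lost it. Among these EMX1 (-4.34), EMX2 (-3.45), IGF2 (-1.88), PAX2 (-6.46) and SALL1 (-2.41) kept a difference near or beyond the main one, whereas ALAS2 (-2.28 to -1.03), ALDH1L1 (-3.06 to -1.42) and SOX4 (2.02 to 1.25) shrank. MANBAL turned from -0.32, not past the test, to 4.52 with that share. The cause was not tested.

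Age in kidney was the least stable result. Against 765 rising and 1401 falling genes, limma-voom gave 1283 and 949, so that more rose than fell, and adding the unpaired libraries gave 1272 and 3342. The added kidneys include the oldest, of 85 dpp, where a gene without reads stands at 0.83, above the filter level of 0. Sex as a covariate gave 0 and 0, as did the share of reads on genes, and leaving out 1 animal gave 0 to 1963 rising and 0 to 3254 falling. For the difference in slope, with 0 and 0, age in days gave 1 gene falling, a floor at 0 gave 77 and 213, limma-voom 419 and 1029, and leaving out 1 animal 0 to 1354 and 0 to 751. Age in brain gave 0 calls in each alternative run.

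Each age is 1 animal, and brains as shallow as 1154619 reads cannot show genes that are present at a few reads. Promoter motifs were not run, as no sequences were used.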

Other observations

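For the leading genes the unpaired libraries lay nearer to their labelled tissue, given here as values only, but several levels were outside the range of the pairs. The 17 dpp brain had STMN2 at 8.24, NSG2 at 8.93 and GRIA2 at 8.64 log2 CPM with no reads of FXYD2. Its TUBB3 (6.71) and LOC118858242 (5.08) lay below every paired brain. The 42 dpp kidney had FXYD2 at 10.82, AGXT at 9.46 and HOXD9 at 6.63, and the 85 dpp kidney, with 308137 reads on genes, had FXYD2 at 8.01 and CDH16 at 12.00.

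The 42 dpp kidney also held liver genes above every paired kidney, with AHSG at 10.07 against at most 7.95, FGB at 7.68 against at most 6.02 and APOA1 at 7.52 against at most 5.71, while its AFP (9.64) lay within the range of the 7 pairs. The potassium channels KCNJ1 and KCNJ16 and the HOX gene HOXD10 shared a pattern among the 7 kidneys. HOXD10 was at 3.55, 3.37 and 4.58 in those of 10, 15 and 22 dpp, at 1.36 in that of 14 dpp and at most -0.66 in those of 41, 46 and 62 dpp.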
